A study of Mus musculus with 23 samples.

Results

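Notch receptors and their ligands were followed at the RNA level in normal thymus and in T-cell acute lymphoblastic leukemia (T-ALL) of mice. The members were taken by name from a table of 24475 genes. They are 8 genes: the receptors Notch1, Notch2, Notch3 and Notch4, and the ligands Dll1, Dll4, Jag1 and Jag2. All of them were listed, and 4 of 8 (Notch1, Notch2, Notch3 and Jag2) reached 1 scaled RPKM in 3 or more libraries, the level needed for the test across all genes. RPKM is a read number per transcript length and library size. The table holds log2(scaled RPKM + 1), and every level or difference below is on this scale unless another is named.

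The 6 thymus controls came from normal C57BL/6 mice. The other 17 libraries were made from tumor-bearing spleen of BALB/c mice that lack Rag2 and Il2rg (Rag2-/-Il2rg-/-), in which a newborn thymus lobe grafted under the kidney capsule had given rise to T-ALL. The graft was wild type in 14 of them (WT T-ALL) and came from Notch3 knockout mice in 3 (Notch3 KO T-ALL). Each T-ALL is the disease of 1 mouse, and libraries are named by the number in their label. Per the study's methods, the wild-type grafts came from B6.Ly5.1 mice, a congenic line on the C57BL/6 background, and recipients were transplanted at several weeks of age. The ages of the thymus controls are not given in the sources used here. Spleens were not fractionated, so host cells, for which the labels list no change in Notch genes, can be part of every T-ALL library. A lower level of a transcript in such bulk tissue cannot be told apart from fewer cells that make it. Tissue, disease and host strain differ together between thymus and T-ALL and cannot be told apart.

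Notch receptors are single-pass membrane proteins that are activated by ligands on a neighboring cell. Ligand pulling exposes the receptor to the protease Adam10 and then to gamma-secretase, and the freed intracellular domain joins the DNA-binding protein Rbpj and a Mastermind coactivator (Maml1 to Maml3) to switch on targets such as Hes1, Dtx1 and Myc. In the thymus, Dll4 on epithelial cells acts on Notch1 of incoming progenitors and sets them on the T-cell path. Gain of Notch1 function is a common event in T-ALL. A gene-level RNA value does not show which Notch1 transcripts are made, whether the receptor is mutated or whether it is cleaved.

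The promoters of Notch1 and Notch3 are shown because these are the receptors with the highest levels in T-ALL and their levels moved together from tumor to tumor (below). Both run 5′ to 3′ on the minus strand of GRCm38.p6 and hold the 250 bases before the start of the RefSeq transcript. Capitals mark the letters GGGCGG, the core of the GC box bound by Sp1-family factors, or their reverse complement CCGCCC.

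Notch1 (chr2:26503823-26504072): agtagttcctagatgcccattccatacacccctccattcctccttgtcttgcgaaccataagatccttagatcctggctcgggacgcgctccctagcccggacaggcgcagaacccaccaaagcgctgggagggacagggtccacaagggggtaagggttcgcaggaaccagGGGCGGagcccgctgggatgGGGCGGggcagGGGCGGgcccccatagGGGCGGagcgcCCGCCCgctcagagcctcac

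Notch3 (chr17:32166891-32167140): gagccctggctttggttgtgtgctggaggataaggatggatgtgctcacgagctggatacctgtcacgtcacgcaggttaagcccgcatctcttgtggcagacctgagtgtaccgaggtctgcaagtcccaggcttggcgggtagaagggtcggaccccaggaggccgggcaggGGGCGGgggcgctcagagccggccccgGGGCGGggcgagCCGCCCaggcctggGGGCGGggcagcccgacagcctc

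The Notch1 stretch holds 5 such matches and the Notch3 stretch 4. Windows of 300 bases around the start held at least 1 match in 5 of 8 members (Notch1, Notch2, Notch3, Dll4 and Jag2), against 35.9% of 27025 promoters. The search for this motif was added after the sequences had been seen. TGGGAA, the core of the site bound by Rbpj, was in 0 of 8 member windows on either strand, and in 25.5% of all promoters. Neither count says anything of factor binding.

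Beside the log2 values, reads behind the low values could be recovered. Scaled RPKM times transcript length falls on multiples of a fixed step in each library, and the step ran from 20.6 to 67.3. Values under 30 reads were whole numbers of reads within 0.1 in 11 of 11 cases for Notch4, 22 of 22 for Dll1, 23 of 23 for Dll4 and 20 of 20 for Jag1. The transcript length of each of these genes was first fitted to bring such values closest to whole reads. The counts are therefore no independent check. Lengths went from 6591 annotated bases to 6623 for Notch4 and from 3581 to 3440 for Dll1. They went from 3747 to 3461 for Dll4 and from 5612 to 5511 for Jag1. The recovered reads are relative depths per gene: the total depth of each library is not in the values (the study's methods give a single approximate figure for all samples), and whether a unit is a read or a read pair is not given in the sources used here. The libraries also fall into 2 sets by their values, although no batch is named in the labels. 40 genes split the thymus and WT T-ALL libraries without overlap into set A (thymus 5 and 6, and WT T-ALL 3, 4, 5 and 7) and set B (the other 4 and 10), and the 3 Notch3 KO libraries lie on the side of set A in 25, 26 and 25 of these 40 genes, so their place is not settled and values within set A that include them assume it. Thymus controls resembled each other in pairs (1 and 3, 2 and 4, 5 and 6), with a correlation across genes of 0.988 to 0.995, against 0.958 to 0.983 for other thymus pairs. No pair of libraries was identical. Markers of T-lineage cells (Cd3d, Lck, Thy1 and 5 others) summed to a scaled RPKM between 2800 and 3438 across thymus controls, with WT T-ALL between 1442 and 3308 and Notch3 KO T-ALL between 1716 and 2468, and Thy1 was the most abundant. B-cell markers, which define a normal spleen, summed to at most 5.80 and 1.53 in the T-ALL groups, whose hosts lack B cells. Neutrophil markers were highest in WT T-ALL 108 and 110, at 17484 and 84652, against a median of 2187 in WT T-ALL.

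Notch1, the receptor of T-cell commitment, was the most abundant member in every library and was higher in T-ALL than in thymus. Thymus controls ran from 4.40 over a median of 4.62 to 5.84, and the 14 WT T-ALL from 5.75 over 6.80 to 7.44. The Notch3 KO libraries 1, 2 and 3 gave 6.80, 7.20 and 6.52. Thus 13 of 14 WT T-ALL and 3 of 3 Notch3 KO T-ALL lay above every thymus control, and WT T-ALL 110 at 5.75 fell between thymus 2 at 5.60 and thymus 4 at 5.84. In scaled RPKM, means were 32.2 ± 15.6 (SD, n = 6) in thymus, 117 ± 39.1 (SD, n = 14) in WT T-ALL and 116 ± 27.9 (SD, n = 3) in Notch3 KO T-ALL, or 3.65 and 3.598 times the thymus mean. Notch1 (gene 18128) spans chr2:26457902-26503822 on the minus strand of GRCm38.

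The rise of Notch1 passed the test in both T-ALL groups. WT T-ALL minus thymus was 1.87 (SE 0.24, limma with Benjamini-Hochberg adjustment over all genes tested, adjusted p = 1.58e-06), and Notch3 KO T-ALL minus thymus was 1.91 (SE 0.35, adjusted p = 0.000229). These comparisons share the thymus controls. Of 11919 genes tested, 2.46% had a larger rise in WT T-ALL and 4.30% in Notch3 KO T-ALL. Calls were common in general: 51.6% of genes tested were called in WT T-ALL (29.3% higher and 22.3% lower) and 37.5% in Notch3 KO T-ALL (21.2% higher and 16.3% lower). The 2 of 4 tested members called in WT T-ALL and 1 of 4 in Notch3 KO T-ALL are therefore not above what genes in general gave, and Notch1 stands out by the size of its change. Among genes tested, 8.42% had all WT T-ALL above all controls and 6.64% all below, and 0 of 4 members did. For Notch3 KO T-ALL the shares were 23.9% and 18.4%, and 1 of 4 members, Notch1, lay above. The median change over all genes was 0.08 in both comparisons.

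The rise of Notch1 was also present within the library sets. In set A, the 4 WT T-ALL (6.39 to 7.43) and the 3 Notch3 KO T-ALL (6.52 to 7.20) lay above thymus 5 and 6 (4.51 and 4.69), by 2.29 and 2.24 in the mean, where the exact permutation test can go no lower than 0.0667 and 0.1. In set B, 10 WT T-ALL exceeded 4 thymus controls by 1.67 (two-sided exact permutation test, p = 0.002). Thymus 2 and 4, one of the alike pairs, stood above the other controls in Notch1 (5.60 and 5.84 against 4.40 to 4.69) and in Notch3 (3.79 and 4.29 against 2.62 to 3.29).

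**Figure D1:**
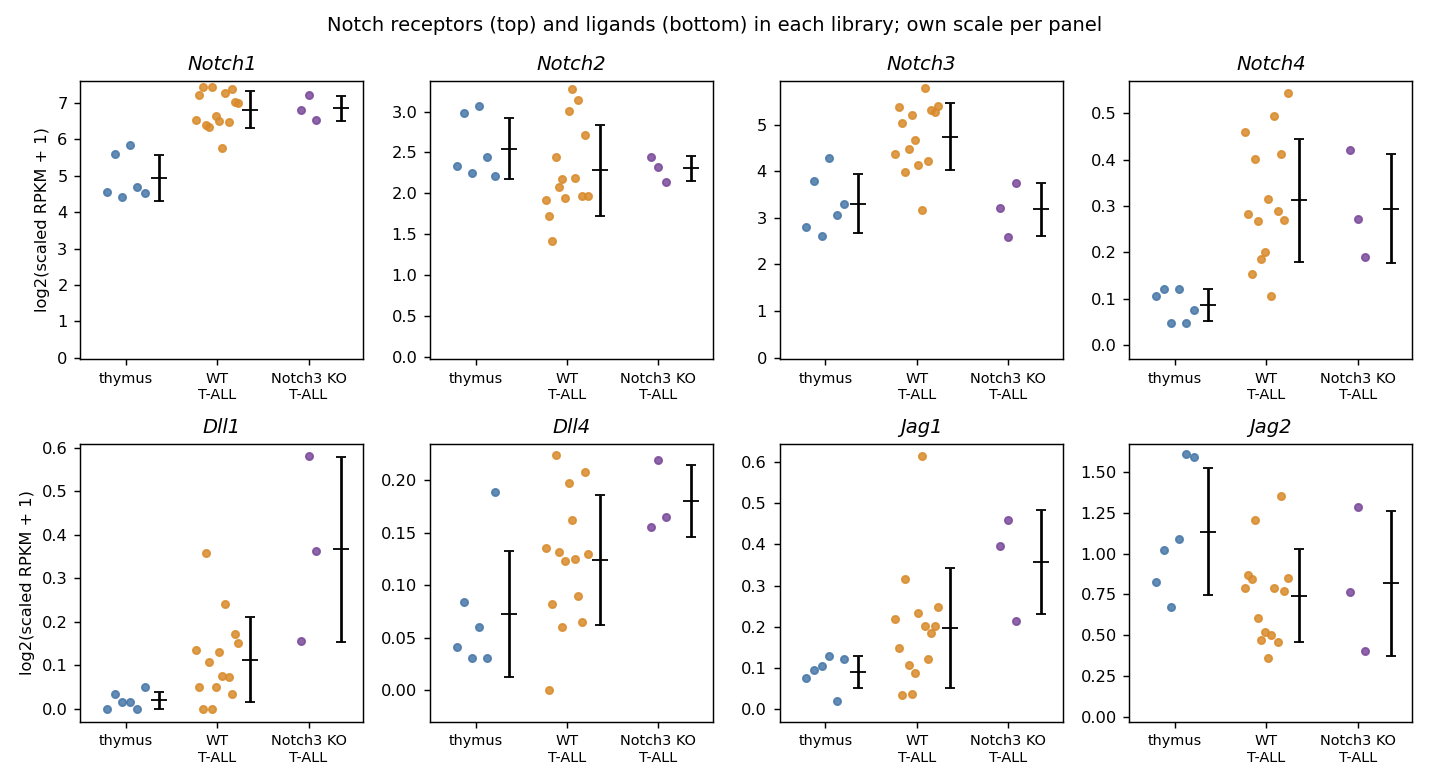
Level of each member, log2(scaled RPKM + 1) on the vertical axis with its own scale in each panel; a point is 1 library, and the bar beside each group is its mean ± SD. Notch1 lies above all thymus controls in 13 of 14 WT T-ALL and in all 3 Notch3 KO T-ALL, while Notch3 does so in 10 of 14 WT T-ALL and in 0 of 3 Notch3 KO T-ALL.

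Notch3, a receptor of early thymocytes and of vascular smooth muscle, was the second most abundant member in every WT T-ALL library but 1 (WT T-ALL 110). Thymus controls ran from 2.62 over 3.18 to 4.29, and WT T-ALL from 3.17 over 4.85 to 5.78. Notch3 KO libraries 1, 2 and 3 gave 3.22, 2.59 and 3.74. The WT T-ALL libraries overlapped thymus at their low end, where 10 of 14 lay above every control, and 3 of 3 Notch3 KO libraries lay within or below the thymus range. The mean scaled RPKM was 9.77 ± 5.07 (SD, n = 6) in thymus, 28.8 ± 13.1 (SD, n = 14) in WT T-ALL and 8.57 ± 3.67 (SD, n = 3) in Notch3 KO T-ALL. Notch3 (gene 18131) spans chr17:32120820-32166896 on the minus strand.

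Notch3 was called as higher in WT T-ALL, by 1.44 (SE 0.31, limma adjusted p = 0.000586), and 4.47% of genes had a larger difference. The difference was 1.52 within set A (exact permutation test, p = 0.133) and 1.39 within set B (exact permutation test, p = 0.0130). In Notch3 KO T-ALL it differed from thymus by -0.12 (SE 0.45, limma adjusted p = 0.848), a difference whose sign changed between settings. Notch3 KO T-ALL minus WT T-ALL was -1.56 (SE 0.41), which did not pass the test across all genes in the 17 T-ALL libraries (limma p = 0.00122, adjusted p = 0.101) and passed with thymus in the fit (adjusted p = 0.0411) and without WT T-ALL 110 (-1.68, adjusted p = 0.0288). Without Notch3 KO 2 it was -1.27 (limma adjusted p = 0.686). It was the only one of the 4 tested members with an unadjusted p under 0.05, and 0 of 4 passed adjustment. Of 11677 genes, 0.617% were called in that comparison, 0.591% higher and 0.0257% lower, and 0.154% had a difference below that of Notch3. Groups did not overlap for 0.325% of genes (higher) and 0.111% (lower), and for 0 of 4 members. A single exact permutation test of Notch3 gave p = 0.00441, where 0.00147 is the smallest p of 3 against 14. Within set A, the 3 Notch3 KO libraries (2.59 to 3.74) lay below the 4 WT T-ALL (3.98 to 5.38), by 1.51 in the mean (exact permutation test, p = 0.0571, smallest possible 0.0286).

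The level of Notch3 RNA does not check the genotype label. Per the study's methods the knockout carries a β-galactosidase gene inserted in frame into the first coding exon. The value covers the whole gene, whether later exons are transcribed from the inserted allele was not tested, and the labels list no Notch3 change in the host. The Notch3 KO libraries held about 1691, 996 and 2121 Notch3 reads by the annotated transcript length. Markers of mural cells (vascular smooth muscle and pericytes, where Notch3 is known to be expressed) summed to between 3.01 and 4.22 scaled RPKM across thymus controls, with WT T-ALL between 12.2 and 108 and Notch3 KO T-ALL between 13.5 and 74.9. Pdgfrb was the most abundant of them in both T-ALL groups, and Rgs5 was at 0 in the 3 Notch3 KO libraries. The mean of Pdgfrb was 42.4 in WT T-ALL (median mural sum 38.0) and 23.2 in Notch3 KO T-ALL (median mural sum 39.2). The mural sums thus rest heavily on this gene. In Notch3 KO libraries 1, 2 and 3 the mural sum was 74.9, 13.5 and 39.2. The part of host cells in the Notch3 values was not tested.

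**Figure D2:**
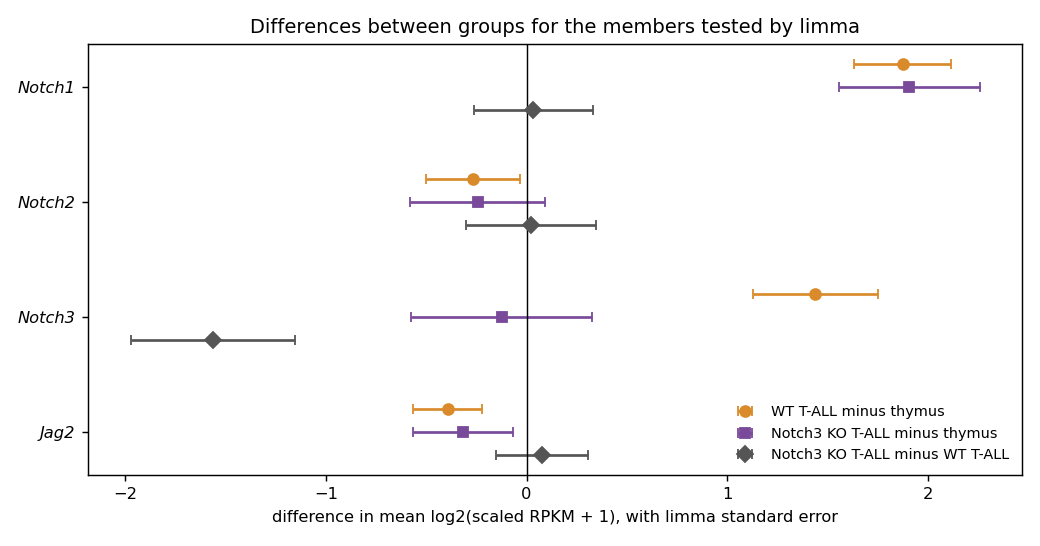
Difference in mean log2(scaled RPKM + 1) for the 4 members tested by limma; points are the differences of 3 comparisons and bars are ± 1 standard error. Notch1 stands at 1.87 and 1.91 against thymus and at 0.03 between the T-ALL groups, whereas Notch3 stands at 1.44, -0.12 and -1.56.

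Notch2, a receptor with roles in B cells and myeloid cells, did not pass the test in any comparison. It ran from 2.22 over 2.39 to 3.06 in thymus and from 1.41 over 2.13 to 3.28 in WT T-ALL, and gave 2.45, 2.32 and 2.14 in Notch3 KO libraries 1, 2 and 3. WT T-ALL spread to both sides of thymus, with 9 of 14 libraries below every control and 2 of 14 above. The differences were -0.27 (SE 0.23, limma adjusted p = 0.346) for WT T-ALL minus thymus, -0.24 (SE 0.34, adjusted p = 0.592) for Notch3 KO T-ALL minus thymus and 0.02 (SE 0.32, adjusted p = 1.00) between the T-ALL groups. With 1 library left out, those against thymus ran from -0.34 to -0.16 (WT T-ALL) and from -0.32 to -0.14 (Notch3 KO T-ALL). Without thymus 2 and 4, WT T-ALL minus thymus was -0.029. The highest WT T-ALL values, 3.28, 3.15 and 3.01, belonged to libraries 110, 120 and 108, of which 110 and 108 also had the highest neutrophil marker sums. Over WT T-ALL, Notch2 had r = 0.61 with neutrophil markers (permutation p = 0.0201, adjusted p = 0.221). It had r = 0.54 with macrophage markers (permutation p = 0.0457, adjusted p = 0.309) and -0.57 with T-lineage markers (permutation p = 0.0348, adjusted p = 0.303). The part of myeloid cells in the Notch2 level was not tested. As a ratio to the T-lineage markers, whose median sum was 3177 in thymus and 2328 in WT T-ALL, the difference of WT T-ALL from thymus was 0.13, of the other sign. Notch2 (gene 18129) spans chr3:98013538-98150367 on the plus strand.

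Notch4, the receptor best known from endothelium, was low in all libraries but lower in thymus. It had 6 to 16 reads in each thymus control, 11 to 56 in WT T-ALL, and 57, 34 and 20 in Notch3 KO libraries 1, 2 and 3. On the log2 scale, thymus ran from 0.048 over 0.091 to 0.12, WT T-ALL from 0.11 over 0.29 to 0.55, and Notch3 KO T-ALL gave 0.42, 0.27 and 0.19. Of the T-ALL libraries, 13 of 14 WT and 3 of 3 Notch3 KO (the latter as in 23.9% of genes tested) lay above every control, and the T-ALL groups overlapped. WT T-ALL minus thymus was 0.23 (exact permutation test, p = 0.00103; limma with no filter on low values, adjusted p = 0.00408), and Notch3 KO T-ALL minus thymus was 0.21 (exact permutation test, p = 0.0119, the smallest p of 3 against 6; limma with no filter, adjusted p = 0.0750). Under quantile normalization the latter was 0.092 (exact permutation test, p = 0.131). Mean scaled RPKM was 0.0623, 0.247 and 0.229. Endothelial markers summed to between 32.7 and 39.5 scaled RPKM across thymus controls, with WT T-ALL between 25.9 and 58.5 and Notch3 KO T-ALL between 39.7 and 51.1, and Pecam1 was the most abundant. Pecam1 is not restricted to endothelium, and Tie1 and Emcn were at 0 in all thymus controls. Notch4 (gene 18132) spans chr17:34564286-34588543 on the plus strand.

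The receptor mixture is read within each library, so the scaling between libraries does not enter. Notch1 made up 63.7% to 70.6% of the summed receptor RPKM of thymus controls. Its share ran from 72.4% to 83.7% across WT T-ALL, and Notch3 KO libraries 1, 2 and 3 stood at 89.4%, 94.0% and 85.1%. The 3 ranges do not overlap, and they stand in that order. With Notch3 left out of the sum, the share of Notch1 differed between the T-ALL groups by 0.87 percentage points. The share of Notch2 was 8.95% to 12.9% in thymus, above all 3 Notch3 KO libraries (2.58% to 3.62%). In WT T-ALL it was 0.81% to 12.51%, with the highest share in library 110. Notch3 made up 17.7% to 25.6% in thymus and 11.5% to 25.7% in WT T-ALL, which overlapped, and 6.75%, 3.24% and 11.6% in Notch3 KO libraries 1, 2 and 3. Notch4 was 0.0543% to 0.328% of the sum in all 23 libraries. The sum itself was 47.0 ± 22.2 (SD, n = 6) scaled RPKM in thymus, 151 ± 49.2 (SD, n = 14) in WT T-ALL and 129 ± 24.6 (SD, n = 3) in Notch3 KO T-ALL.

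**Figure D3:**
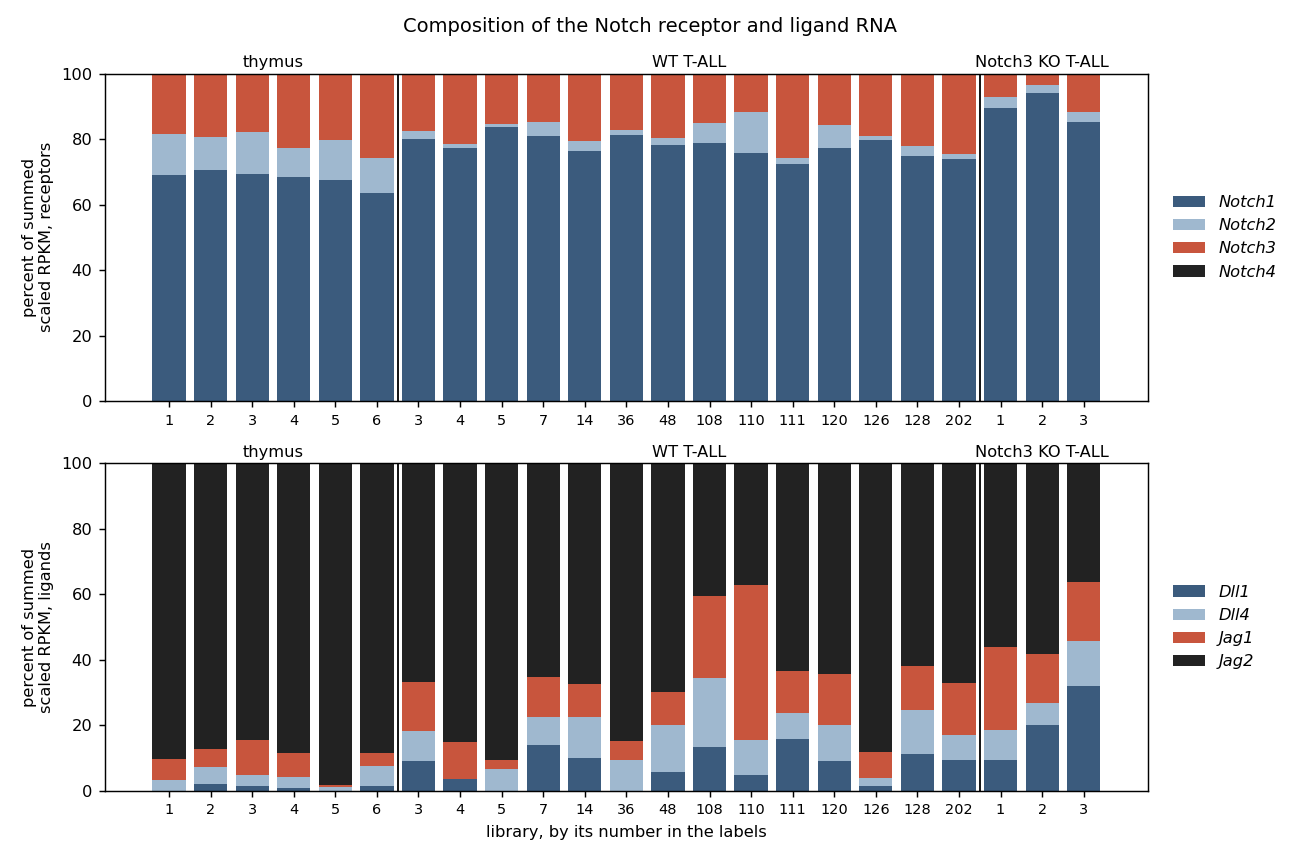
Share of each receptor in the summed scaled RPKM of Notch1 to Notch4 (top) and of each ligand in that of Dll1, Dll4, Jag1 and Jag2 (bottom), in percent; each bar is 1 library. Notch1 takes at most 70.6% in thymus, at most 83.7% in WT T-ALL and at least 85.1% in Notch3 KO T-ALL, and Jag2 takes 84.6% to 98.3% of the ligand sum in thymus.

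The log2 ratio of Notch3 to Notch1, taken on scaled RPKM with no offset, ran from -1.97 over -1.82 to -1.32 in thymus and from -2.72 over -2.15 to -1.49 in WT T-ALL, and was -3.73, -4.86 and -2.88 in Notch3 KO libraries 1, 2 and 3. All 3 Notch3 KO libraries lay below all 20 others. Notch3 KO T-ALL was lower than WT T-ALL by 1.71 in the mean ratio (exact permutation test, p = 0.00147, the smallest possible; 0.00441 adjusted over the 3 comparisons of this ratio) and lower than the thymus controls, by 2.08 (exact permutation test, p = 0.0119, adjusted 0.0179). Within set A, the difference from WT T-ALL was -1.58 (exact permutation test, p = 0.0286, the smallest possible). WT T-ALL minus thymus was -0.37 (exact permutation test, p = 0.0346, adjusted 0.0346). In set A this last difference was -0.71, with 4 of 4 WT T-ALL below both controls (exact permutation test, p = 0.0667, the smallest possible), and in set B it was -0.21 (exact permutation test, p = 0.315). Without thymus 6 it was -0.29 (exact permutation test, p = 0.106).

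Among the ligands, Jag2 alone reached a group mean above 1 scaled RPKM, in thymus. Thymus ran from 0.67 over 1.05 to 1.61 and WT T-ALL from 0.36 over 0.78 to 1.35, and Notch3 KO libraries 1, 2 and 3 gave 0.76, 1.28 and 0.40. The groups overlapped, with 6 of 14 WT T-ALL below every control, and thymus 5 and 6 at 1.61 and 1.59 stood above the other 4 controls (0.67 to 1.09). WT T-ALL minus thymus was -0.39 (SE 0.17, limma adjusted p = 0.0585), which passed the threshold under quantile normalization (-0.56, adjusted p = 0.00913) with the library set as a term (adjusted p = 0.0436) and in limma without trend and robust (adjusted p = 0.0488), and was -0.15 after a correction for GC content and length (adjusted p = 0.357). It also passed without thymus 1 or 3, WT T-ALL 7 or 126, or Notch3 KO 2 (limma adjusted p of 0.0287 to 0.0498), and the exact permutation test gave p = 0.01997. For Notch3 KO T-ALL the difference was -0.32 from thymus (SE 0.25, adjusted p = 0.327) and 0.08 from WT T-ALL (SE 0.23, adjusted p = 0.996). Single libraries moved both: they were -0.55 without Notch3 KO 2 (from thymus), and -0.11 and 0.28 without Notch3 KO 3. Jag2 is known from thymic epithelium and also from progenitors, and the summed markers of thymic epithelium lay between 10.98 and 14.5 scaled RPKM across thymus controls, between 5.78 and 18.6 across WT T-ALL and between 5.40 and 12.7 across Notch3 KO T-ALL. Ly75, the most abundant of these in thymus and WT T-ALL, is also made by dendritic cells, and Foxn1, Krt5 and Psmb11 were at 0 in the 3 Notch3 KO libraries. Jag2 (gene 16450) spans chr12:112907803-112929812 on the minus strand.

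Dll1, a Delta-type ligand with a role in splenic B-cell niches, was close to absent in thymus. The controls held 0 to 2 reads each and 6 in all, WT T-ALL held 0 to 20, and Notch3 KO libraries 1, 2 and 3 held 10, 42 and 21. In libraries with 0 reads, a limit of 3 reads allows a scaled RPKM of up to 0.0290 and 0.0328 (thymus 1 and 5) and of 0.0587 and 0.0185 (WT T-ALL 5 and 36), for counting error only. On the log2 scale, thymus ran from 0.00 to 0.050, WT T-ALL from 0.00 over 0.091 to 0.36, and Notch3 KO T-ALL gave 0.16, 0.58 and 0.36. All 3 Notch3 KO libraries lay above every control, as for 23.9% of genes tested, and so did 10 of 14 WT T-ALL. In turn, 2 of 3 Notch3 KO libraries lay above every WT T-ALL. Notch3 KO T-ALL minus thymus was 0.35 (exact permutation test, p = 0.0119, the smallest possible; limma with no filter, adjusted p = 0.00179). For WT T-ALL the difference from thymus was 0.093 (exact permutation test, p = 0.0294; limma with no filter, adjusted p = 0.210). By the same exact permutation test, p was 0.0942 under quantile normalization, 0.113 with the 3 alike thymus pairs averaged, and 0.0548, 0.0501 and 0.0548 without thymus 1, 4 and 5. Notch3 KO T-ALL minus WT T-ALL was 0.25 (exact permutation test, p = 0.00882; limma with no filter, adjusted p = 0.591), and without Notch3 KO library 2 it was 0.15 (exact permutation test, p = 0.0583). Within set A this difference was 0.23 (exact permutation test, p = 0.143, smallest possible 0.0286). The summed markers, in scaled RPKM, had medians in Notch3 KO and WT T-ALL of 2372 and 378 for erythroid cells, 98.7 and 22.2 for megakaryocytes, and 274 and 116 for macrophages, and their part was not tested. Dll1 (gene 13388) spans chr17:15367354-15376932 on the minus strand.

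Dll4, the thymic epithelial ligand of Notch1 and also an endothelial one, was low in the thymus libraries too. Thymus controls held 2 to 8 reads, WT T-ALL 0 to 15 and Notch3 KO libraries 10, 14 and 9. The 0 of WT T-ALL 4 allows a scaled RPKM of up to 0.0517. On the log2 scale, means were 0.073 ± 0.060 (SD, n = 6) in thymus, 0.12 ± 0.062 (SD, n = 14) in WT T-ALL and 0.18 ± 0.034 (SD, n = 3) in Notch3 KO T-ALL. Thymus 6, at 0.19, lay above the other controls and within the T-ALL range. The difference of WT T-ALL from thymus was 0.051 (exact permutation test, p = 0.105), with p = 0.0197 by the same exact test without thymus 6. Notch3 KO T-ALL minus thymus was 0.11 (exact permutation test, p = 0.0476; limma with no filter, adjusted p = 0.0749), which was above 0.05 when any of 8 of the 9 libraries was left out and 0.0179 without thymus 6 (exact permutation test). Under quantile normalization the difference was 0.020 (exact permutation test, p = 0.786). Dll4 (gene 54485) spans chr2:119325784-119335666 on the plus strand.

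Jag1, a ligand of endothelium, stroma and macrophages, was at 2 to 14 reads in thymus. It had 2 to 64 reads in WT T-ALL, where library 110 held the 64 and the next highest 28, and 44, 51 and 19 in Notch3 KO libraries 1, 2 and 3. On the log2 scale, thymus ran from 0.020 over 0.099 to 0.13, WT T-ALL from 0.035 over 0.19 to 0.61, and Notch3 KO T-ALL gave 0.40, 0.46 and 0.22. Notch3 KO T-ALL lay above every control, by 0.27 in the mean (exact permutation test, p = 0.0119, the smallest possible; limma with no filter, adjusted p = 0.0361), as 23.9% of genes tested did. For WT T-ALL the difference from thymus was 0.11 (exact permutation test, p = 0.0856), and Notch3 KO T-ALL minus WT T-ALL was 0.16 (exact permutation test, p = 0.0853, and 0.00893 without WT T-ALL 110). Macrophage markers summed to between 9.35 and 62.1 scaled RPKM across thymus controls, with WT T-ALL between 21.6 and 373 and Notch3 KO T-ALL between 267 and 383. Vcam1 was the most abundant in both T-ALL groups. Fibroblast markers summed to at most 0.77 across thymus controls, to between 0.80 and 97.7 across WT T-ALL and between 13.5 and 34.9 across Notch3 KO T-ALL. The part of macrophages or fibroblasts was not tested. Under quantile normalization the difference of Notch3 KO T-ALL from thymus was 0.14 (exact permutation test, p = 0.0595). Jag1 (gene 16449) spans chr2:137081451-137116520 on the minus strand.

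**Figure D4:**
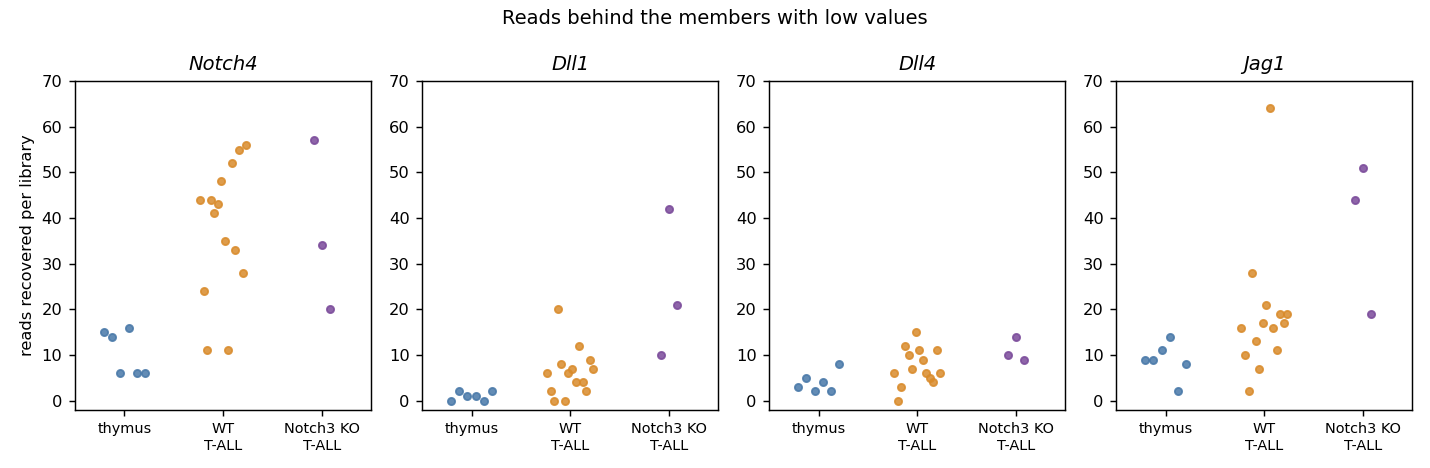
Reads recovered from the deposited values for Notch4, Dll1, Dll4 and Jag1, on the same vertical scale of reads per library; a point is 1 library, not corrected for depth. Thymus controls hold at most 16, 2, 8 and 14 reads, and Notch3 KO libraries at least 20, 10, 9 and 19.

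Within library set B, 10 WT T-ALL against 4 thymus controls gave differences of 0.21 for Notch4 (exact permutation test, p = 0.0140), 0.087 for Dll1 (p = 0.0350), 0.075 for Dll4 (p = 0.0160), 0.10 for Jag1 (p = 0.242) and -0.23 for Jag2 (p = 0.171), all by the same exact test. In set A, 4 against 2 libraries gave 0.26 for Notch4 (exact permutation test, p = 0.133), 0.11 for Dll1 (p = 0.667), 0.00045 for Dll4 (p = 1.00), 0.11 for Jag1 (p = 0.333) and -0.68 for Jag2 (p = 0.0667, the smallest possible). The Notch3 KO libraries were compared with set A, where 3 against 2 thymus controls cannot go below 0.1 by the exact test. They lay above thymus 5 and 6 in Notch4, Dll1 and Jag1 by 0.23, 0.34 and 0.29 in the mean, and overlapped them in Dll4. In Jag2 all 3 (0.40 to 1.28) lay below thymus 5 and 6 (1.61 and 1.59), and the means differed by -0.78 (exact permutation test, p = 0.2).

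The ligand mixture followed from these values. Jag2 made up 84.6% to 98.3% of the summed ligand RPKM of the controls and 37.2% to 90.6% of that of WT T-ALL. In Notch3 KO libraries 1, 2 and 3 it was 56.2%, 58.1% and 36.2%. All Notch3 KO libraries lay below the thymus range, and WT T-ALL overlapped both. The largest share of Jag1, 47.5%, was in WT T-ALL 110, and the largest share of Dll1, 32.1%, in Notch3 KO 3. The ligand sum was small beside the receptor sum, at 1.40 ± 0.65 (SD, n = 6), 1.03 ± 0.43 (SD, n = 14) and 1.53 ± 0.83 (SD, n = 3) scaled RPKM, and the shares of single ligands other than Jag2 rest on the few reads given above.

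From tumor to tumor, the 3 receptors tested across all genes varied more than most genes, and so did they in thymus. Over the 14 WT T-ALL libraries the SD was 0.72 for Notch3, 0.56 for Notch2 and 0.51 for Notch1, against a median of 0.41 over 11677 genes, and 84.7%, 74.0% and 68.1% of genes had a smaller SD. Over the 6 thymus controls the SD was 0.63, 0.38 and 0.62 for the same genes, against a median of 0.23. Notch4, close to 0 in all libraries, had an SD of 0.13 in WT T-ALL. Jag2 had an SD of 0.29 there, with 15.97% of genes below it. WT T-ALL 111 had the highest Notch3 (5.78) and WT T-ALL 110 the lowest Notch1 and Notch3 (5.75 and 3.17) and the highest Notch2 (3.28). WT T-ALL 110 was also the library with the lowest T-lineage sum (1442) and the highest neutrophil sum (84652).

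Notch1 and Notch3 moved together across the WT T-ALL libraries. By Pearson's r, 9 of 28 member pairs had an unadjusted permutation p under 0.05 and 1 kept it after adjustment over the 28, and by Spearman's rho 3 did. Notch1 and Notch3 passed by both, with r = 0.91 (permutation test, p = 6e-05, adjusted p = 0.00168) and rho = 0.75 (permutation test, p = 0.00289, adjusted p = 0.0405). Without the 2 libraries farthest from the median of Notch1, r was 0.87, and without WT T-ALL 110 it was 0.86. In the 10 libraries of set B, r was 0.93 (permutation test, p = 0.00039), and the 4 of set A are too few for a value. Notch1 has a gap between 6.63 and 6.98, seen in the data, and a split there narrows its range, which by itself lowers r. Within the upper 7 libraries r was -0.31 (exact permutation test, p = 0.51, and rho = -0.61, p = 0.167). Within the lower 7 it was 0.91 (exact permutation test, p = 0.0258, and rho = 0.61, p = 0.167), or 0.46 without WT T-ALL 110 (exact permutation test, p = 0.358). The points share the scaling of their library, and all 3 Notch3 KO libraries lay off this line, below every WT T-ALL of similar Notch1.

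**Figure D5:**
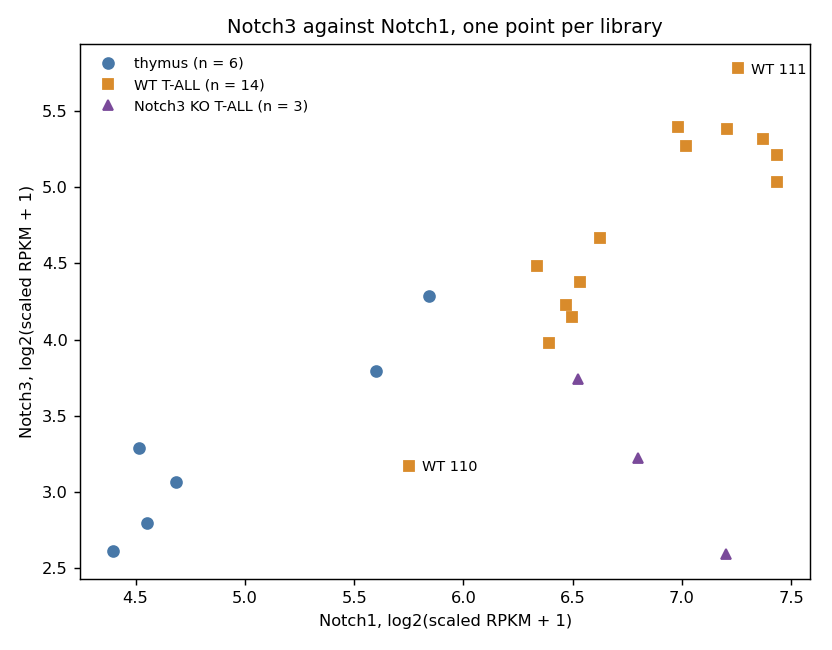
Notch3 (vertical) against Notch1 (horizontal), both as log2(scaled RPKM + 1); a point is 1 library. The WT T-ALL libraries rise from 110, at 5.75 and 3.17, to an upper group with Notch1 of 6.98 to 7.44, and the 3 Notch3 KO libraries lie below it, at a Notch3 level of 2.59 to 3.74.

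Notch2 ran against Notch1 (r = -0.65, adjusted permutation p = 0.0798) and against Notch3 (r = -0.63, adjusted permutation p = 0.0899), and without WT T-ALL 110 the values were -0.50 and -0.46. Among the ligands, pairs with Dll1 passed adjustment by rank only: Dll1 and Dll4 had r = 0.70 (adjusted permutation p = 0.0665) and rho = 0.80 (adjusted permutation p = 0.0221), and Dll1 and Jag1 had r = 0.37 (adjusted permutation p = 0.316) and rho = 0.72 (adjusted permutation p = 0.0458). Against marker lists, 88 pairs gave 13 with an unadjusted permutation p under 0.05, and 1 passed adjustment: Jag1 ran against the T-lineage markers (r = -0.75, adjusted permutation p = 0.0414, and rho = -0.78, adjusted permutation p = 0.159). Without WT T-ALL 110 that r was -0.75, and in the 10 libraries of set B it was -0.75 as well. The pair no longer passed adjustment in set B, at an offset of 0.1 or under quantile normalization, where 0 of 88 did. Jag1 had r = 0.67 with macrophage markers (permutation p = 0.00495, adjusted p = 0.145) and 0.75 with neutrophil markers (permutation p = 0.004, adjusted p = 0.145). Without the 2 libraries farthest from the median of Jag1 these were 0.59 and 0.33. Notch4 and Dll1 had r of 0.64 and 0.66 with endothelial markers (permutation p = 0.0143 and 0.00948, adjusted p = 0.21 and 0.209). Notch1 and Notch3 had r of 0.45 and 0.47 with the T-lineage markers (permutation p = 0.108 and 0.091) and of 0.30 and 0.31 with the mural markers (permutation p = 0.291 and 0.289). With neutrophil markers their r was -0.61 and -0.56 (permutation p = 0.0195 and 0.0386, adjusted p = 0.221 and 0.303). Without the 2 libraries farthest from the median of each gene it was -0.28 and -0.18. With macrophage markers their r was -0.55 and -0.38 (permutation p = 0.0413 and 0.188, adjusted p = 0.303 and 0.534).

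The genes most like each receptor over the 14 WT T-ALL libraries were taken from 8033 genes with a mean scaled RPKM of at least 5, with no test. Notch1 came closest to Notch3 (r = 0.91), then Kansl1, a subunit of a histone acetyltransferase complex (0.88), and Specc1l, a cytoskeletal protein (0.87). Notch3 came closest to Notch1, then Spg11, a lysosomal protein (0.88), and Msi2, an RNA-binding protein (0.88). Notch2 came closest to Ptpn12, a tyrosine phosphatase (0.86), Ly86, a partner of the Toll-like protein RP105 on B and myeloid cells (0.85), and Ceacam1, an adhesion molecule (0.81). Genes of the last group ranged widely, Ceacam1 from 0.76 to 5.65.

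Around the members, the other genes of the pathway moved in both directions. Of 44 genes in 7 lists by role, 36 passed the filter, and 8 were called as higher and 9 as lower in WT T-ALL than in thymus, or 47.2% against 51.6% of all genes. In Notch3 KO T-ALL 4 rose and 4 fell, or 22.2% against 37.5% of all genes. Between the T-ALL groups limma called 0 of 35, and 2 of them had an unadjusted p under 0.05.

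Targets held most of the rises. In WT T-ALL 5 of 7 tested targets rose and 0 fell (29.3% of all genes rose), with a median difference of 1.87 against 0.08 over all genes, and in Notch3 KO T-ALL 4 of 7 rose (21.2% of all genes), with a median of 2.01. The list holds 10 targets, and Hes5, Hey1 and Hey2 did not pass the filter. Their means were 0.39, 0.20 and 0.020 in thymus, 0.12, 0.15 and 0.012 in WT T-ALL and 0.71, 0.22 and 0.030 in Notch3 KO T-ALL. Heyl, at most 0.30 in thymus, passed the filter only through T-ALL libraries. These counts and medians therefore depend in part on the filter. Between the T-ALL groups the median difference of the 7 targets (Notch3 KO minus WT) was -0.94, against -0.0027 over all genes, with 0 called by limma and 2 at an unadjusted p under 0.05. Heyl, a repressor of the Hes and Hey family, was at 0.21 ± 0.081 (SD, n = 6) in thymus and 3.90 ± 1.30 (SD, n = 14) in WT T-ALL, higher by 3.70 (SE 0.49, limma adjusted p = 2.31e-06). Dtx1, a ubiquitin ligase induced by Notch, rose by 3.04 (SE 0.40, adjusted p = 2.59e-06), and Hes1, the classical target repressor, by 2.98 (SE 0.31, adjusted p = 8.78e-08). Myc, the growth regulator driven by Notch1 in T-ALL, rose by 1.87 (SE 0.21, adjusted p = 1.60e-07). In Notch3 KO T-ALL the same 4 genes were called, Heyl by 2.97, Dtx1 by 2.74, Myc by 2.07 and Hes1 by 2.01, the last with 2 of 3 libraries above every control and an SD of 1.62. Heyl and Dtx1 are also known from blood vessel and B-lineage cells, and Myc is under many controls, so these lists do not measure Notch activity alone. Ptcra and Il2ra, targets in early thymocytes, did not pass the test in either group. Il2ra was at 4.52 ± 0.66 (SD, n = 6) in thymus, 4.61 ± 2.16 (SD, n = 14) in WT T-ALL and 1.78 ± 1.80 (SD, n = 3) in Notch3 KO T-ALL.

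The nuclear complex was called about as often as genes in general, in 4 of 7 genes in WT T-ALL (57.1% against 51.6%) and 2 of 7 in Notch3 KO T-ALL (28.6% against 37.5%). In WT T-ALL the coactivators Maml2 and Maml1 were below every control in 14 of 14 libraries (differences of -1.61 and -0.85, limma adjusted p = 9.67e-07 and 9.53e-06), the corepressor Spen differed by -0.70 (adjusted p = 0.00761) and Maml3 by 0.76 (adjusted p = 0.00499), while Rbpj itself had a difference of 0.0084 (adjusted p = 0.962). In Notch3 KO T-ALL, Maml2 differed from thymus by -1.77 and Maml1 by -0.94 (adjusted p = 7.23e-05 and 0.000421). Lfng, a fringe enzyme that modifies the receptor's sugar chains and its choice of ligand, fell in WT T-ALL by 1.59 on the log2 scale (SE 0.40, adjusted p = 0.00211) and differed by -0.53 in Notch3 KO T-ALL (adjusted p = 0.488). Neurl1b, a ubiquitin ligase for ligand uptake, was lower in both (-1.11 and -1.23, adjusted p = 0.000343 and 0.00530), and so was Itch, a ubiquitin ligase of receptor turnover (-0.53 and -0.71, adjusted p = 0.00267 and 0.00666). Of 9 tested genes of receptor processing, Adam17 alone was called by limma in WT T-ALL (-0.59, adjusted p = 0.00108), or 11.1% against 51.6% of all genes. In Notch3 KO T-ALL 0 of 9 were called, against 37.5% of all genes, and 2 had an unadjusted p under 0.05, as had 5523 of 11919 genes. Adam10 and the gamma-secretase subunits tested did not pass in either group.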

How the data were processed

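RNA of 6 thymus controls, 14 WT T-ALL and 3 Notch3 KO T-ALL spleens was sequenced by the authors from stranded mRNA libraries (paired ends), mapped with OSA in ArrayStudio and quantified on mm10; tool versions and annotation are not given in the sources used here. The deposited values are log2 of RPKM + 1, with RPKM scaled so that the upper quartile of each library is 10 (read from the values, 3.458 to 3.459 on the log2 scale). The members and gene lists were chosen with earlier results of these data known.

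Genes that reached 1 scaled RPKM in 3 or more libraries were tested with limma 3.58.1 (trend, robust) in R 4.3.3, all 3 groups in 1 fit against thymus (11919 genes) and the T-ALL libraries alone between T-ALL groups (11677), with Benjamini-Hochberg adjustment and a threshold of 0.05. Single values had two-sided exact permutation tests of group means. Correlations used 100000 permutations. The tests were checked on simulated data. Whole reads were recovered from low values, with transcript lengths fitted to them. The study's legend to its plot of transcription factors in T-ALL and normal thymus gives each dot as 1 mouse. It does not name the libraries plotted, and the labels do not say whether the thymus controls came from separate animals. The controls also resemble each other in pairs, so p-values measure the spread between these samples, which may be technical. Named genes were the 8 members, per comparison the 4 largest called rises and falls among other pathway genes, and the 3 genes most like each receptor. Spen, Maml3, Rbpj, Adam17, Adam10, Ptcra and Il2ra were named outside that rule, after their values had been seen. Positions and promoters are from RefSeq on GRCm38.p6 (8 of 8 members matched), and transcript lengths and GC content from GENCODE M21. Alternatives were other offsets, filters, scalings, fits and left-out libraries. Library sets were inferred from the values.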

Additional observations from a re-analysis of the deposited data

Results flagged for a closer look

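The log2 ratio of Notch3 to Notch1 moved from thymus by different amounts in the T-ALL groups. The change in Notch3 KO T-ALL minus that in WT T-ALL was -1.71 (exact permutation test, p = 0.00147, the smallest 3 against 14 can give), with 3 of 3 Notch3 KO libraries below all WT T-ALL. Notch3 alone, on the other scale of log2(scaled RPKM + 1), differed by -1.56 (exact permutation test, p = 0.00441), with 1 of 3 libraries below all WT T-ALL, and it did not pass adjustment over all genes tested by limma (adjusted p = 0.101). Whether the inserted allele is transcribed past the insertion, and the part of host cells in the level, were not tested.

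Among the thymus controls, Dll4 in thymus 6, at a log2 value of 0.19 from 8 reads, stood apart from the other 5 (0.031 to 0.084). It was the only one of 17 groups of values so marked, and about 1 in 20 is marked by chance.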

How the results depend on the processing

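Against thymus, Notch1 in both T-ALL groups and Notch3 in WT T-ALL kept their direction under all alternatives run for them, and their limma calls in every limma fit. Leaving out 1 library at a time gave 1.77 to 2.06 and 1.73 to 2.09 for Notch1 and 1.30 to 1.63 for Notch3, and without the pair of thymus 2 and 4 (added after seeing the data) they were 2.27, 2.30 and 1.80. The exact test, unadjusted and over all 8 members, counted 5 members in WT T-ALL, 5 in Notch3 KO T-ALL and 2 between the T-ALL groups. By limma, over genes past the filter, an unadjusted p under 0.05 was reached by 6847 and 5523 of 11919 genes and 994 of 11677. These shares come from another test and leave out Notch4, Dll1, Dll4 and Jag1, so they are only a rough measure beside the exact counts. With no filter 3 members were called in Notch3 KO T-ALL, and 4686 of 24475 genes. Between the T-ALL groups 1 was called with all 3 groups in the fit and without WT T-ALL 108 and 110 (Notch3, -1.74, limma adjusted p = 0.0124, chosen after seeing the data), where 254 of 11919 and 157 of 11508 genes were called against 72 of 11677, and 0 to 1 with 1 library left out (1 without WT T-ALL 110). The ratio of Notch3 to Notch1 was -0.71 and -0.21 in WT T-ALL minus thymus within sets A and B (-0.42 to -0.29 with 1 library left out, and above 0.05 by the exact test without thymus 4, 5 or 6), and -2.29 in Notch3 KO T-ALL minus thymus within set A (exact permutation test, p = 0.2, where 0.1 is the smallest possible). Correlations (r) between members past the threshold numbered 1 to 5 with 1 library left out. Those with markers numbered 0 at an offset of 0.1, under quantile normalization and in set B. At an unadjusted permutation p under 0.05, set B had 11.

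Small differences turned sign, and the cause was not tested. In WT T-ALL minus thymus, Notch2 was 0.075 after GC and length correction and 0.13 relative to T-lineage markers, and Dll4 was -0.00398 under quantile normalization. In Notch3 KO T-ALL minus thymus, Notch2 was 0.084 with the library set as a term, 0.0018 after GC and length correction and 0.29 relative to T-lineage markers. Notch3 was 0.24 without thymus 2 and 4, 0.0072 within set A, 0.15 after GC and length correction, 0.45 relative to T-lineage markers and -0.40 to 0.17 with 1 library left out. Between the T-ALL groups, Notch1 was -0.051 with the set as a term and within set A, -0.054 after GC and length correction, -0.080 without WT T-ALL 108 and 110, and -0.15 to 0.19 with 1 library left out. Notch2 was -0.057 under quantile normalization, -0.074 after GC and length correction and -0.051 to 0.11 with 1 library left out. Jag2 was -0.023 under quantile normalization and -0.11 with the set as a term. Notch4 was 0.067 relative to T-lineage markers and -0.082 to 0.034 with 1 library left out. Of shares in percentage points, Notch2 was 0.94 in set A and -0.65 to 0.28 with 1 library left out. Notch4 was -0.0215 without Notch3 in the sum and -0.0221 in set A, and -0.042 to 0.029 with 1 library left out, with -0.0069 to 0.065 against thymus. Dll4 was -1.72 to 1.79.

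Replicate numbers did not pair the samples: deviations of same-numbered libraries correlated by -0.035, 0.044 and -0.024 (WT T-ALL and thymus 3, 4 and 5) and by -0.015, 0.11 and 0.071 (Notch3 KO and thymus 1, 2 and 3), and 1 of 3 Notch3 KO libraries and 0 of 3 WT T-ALL correlated best with its own number. With the replicate number as a block, 2 members were called in WT T-ALL (1942 of 10546 genes) and 1 in Notch3 KO T-ALL (3630 of 10828 genes), with Notch1 at 2.08 and 1.99, Notch2 at -0.90 and -0.21 and Notch3 at 1.61 and 0.11. No paired analysis was possible between the T-ALL groups because they share only 1 number. With the 3 thymus pairs averaged (added after seeing the data), limma called 2 members in WT T-ALL (3627 of 11846 genes, against 6150 of 11919 without averaging) and 1 in Notch3 KO T-ALL (2875 genes, against 4475). Dll1 in WT T-ALL no longer passed, and Notch4, Dll1, Dll4 and Jag1 in Notch3 KO T-ALL could not, since 3 against 3 cannot go below 0.1. Depth per library is not in the values, and for Notch4, Dll1, Dll4 and Jag1 few reads limit any difference.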
